A study of Mus musculus with 4 samples.

Results

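Vascular smooth muscle nuclei of the mouse right ventricle (RV) were selected by the transcripts that they contained. A barcode was kept if it had at least 200 genes and less than 10% of its unique molecular identifiers (UMIs, each standing for 1 captured transcript) from mitochondrial genes. It was taken as smooth muscle if Ryr2 of cardiomyocytes (CMs) gave less than 1% of its UMIs, if it had at least 2 UMIs of Myh11 and at least 4 UMIs over Myh11, Acta2, Lmod1, Cnn1 and Tagln, and if it had at most 1 UMI over Pdgfra, Abca8a, Ptprb and Mrc1, which mark fibroblasts, endothelial cells and macrophages. This rule found 341 of the 48428 nuclei kept, of 53090 barcodes in all. The nuclei came from the RVs of C57/BL6J mice of the WT genotype at P21, after sham surgery or RV volume overload (RVVO) at P7. The overload came from a fistula made with a needle between the abdominal aorta and the inferior vena cava, and sham surgery left out this step. There were 2 sham and 2 RVVO libraries, and the sources do not say how many mice went into a library, so p-values measure the spread between libraries. Injections of cyclosporin A or saline are described for the study, and which of them, if any, the mice of these libraries had is not stated.

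Smooth muscle cells wrap the arteries and arterioles of the heart, and their tone sets the coronary flow. They contract when calcium activates myosin light chain kinase, which lets smooth muscle myosin pull on alpha actin. The genes of this apparatus are switched on together by serum response factor and its partner myocardin, through a short promoter element called the CArG box. Pericytes, the mural cells of capillaries, are related cells that share many genes with smooth muscle and have little of its contractile apparatus.

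The selection found 125, 137, 22 and 57 nuclei in the libraries sham 1, sham 2, RVVO 1 and RVVO 2, and lists of 4 values keep that order. Their UMIs summed to 345901, 344172, 72961 and 159619, so the sums of RVVO 1 are the least precise. The median nucleus had 2452, 2416, 3226.5 and 2591 UMIs, and 1346, 1370, 1638.5 and 1419 genes. Mitochondrial transcripts made up a median of 0.772%, 0.912%, 0.528% and 0.458% of the UMIs of a nucleus. Between 28 and 70 barcodes were shared by each pair of libraries, and no barcode was selected in both libraries of a pair. Doublet scores marked 10, 12, 0 and 1 of the selected nuclei as likely pairs of nuclei, and these were kept.

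The label was checked against its 5 markers, which chose the nuclei and are therefore given as a description. Myh11, the smooth muscle myosin heavy chain, had 2686, 3336, 3454 and 3609 CPM in smooth muscle nuclei, where CPM are the UMIs of a gene relative to all UMIs of the class in a library, scaled to a common total. In pericyte nuclei, chosen by UMIs of Abcc9, Kcnj8, Rgs5, Vtn and Pdgfrb, Myh11 had 11.6, 23.7, 12.3 and 7.25 CPM. Acta2, the alpha actin of smooth muscle, was found in 87.2%, 81.0%, 81.8% and 86.0% of the smooth muscle nuclei. Lmod1, which nucleates actin filaments, was found in 64.8%, 66.4%, 72.7% and 75.4%. Tagln, an actin-bundling protein, was found in 53.6%, 55.5%, 45.5% and 59.6%. Cnn1, or calponin, which restrains the myosin motor, was the weak marker, with only 5, 16, 3 and 5 UMIs in the 4 libraries. All 5 markers together were found in 10 nuclei, 4 in 130, 3 in 111, 2 in 74 and Myh11 alone in 16 nuclei. At the threshold, 12, 13, 1 and 2 nuclei were inside it with exactly 4 UMIs of the markers, while 5, 12, 3 and 5 nuclei were just outside with 3.

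The promoters of a rule gene, Acta2, and of Myl9, a contractile gene that the rule did not use, are shown because both belong to the apparatus that the CArG box serves. Each is the RefSeq sequence of GRCm38.p6 from 250 bases before to 50 after the start of the gene, read in the direction of transcription, with capitals marking a CArG box (2 C, then 6 bases of A or T, then 2 G, a pattern that reads the same on both strands) or a box with 1 C or G among the 6 inner bases. Acta2, on the minus strand at chr19:34255324-34255623, and Myl9, a regulatory light chain of smooth muscle myosin, on the plus strand at chr2:156775214-156775513, read as follows.
Acta2: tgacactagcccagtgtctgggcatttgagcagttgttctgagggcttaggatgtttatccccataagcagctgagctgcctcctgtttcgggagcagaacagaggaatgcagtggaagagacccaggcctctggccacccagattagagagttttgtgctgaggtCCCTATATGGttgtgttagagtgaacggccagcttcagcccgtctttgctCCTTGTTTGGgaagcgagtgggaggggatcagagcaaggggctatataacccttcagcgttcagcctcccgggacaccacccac
Myl9: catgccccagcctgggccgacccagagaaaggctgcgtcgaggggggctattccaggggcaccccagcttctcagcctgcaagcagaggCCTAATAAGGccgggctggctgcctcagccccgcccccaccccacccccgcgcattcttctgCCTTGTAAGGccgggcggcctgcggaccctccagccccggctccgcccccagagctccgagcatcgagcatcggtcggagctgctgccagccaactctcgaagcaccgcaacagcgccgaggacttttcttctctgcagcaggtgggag

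The Acta2 window held no exact CArG box and 2 boxes with 1 C or G inside, which begin 84 and 34 bases before the start. The Myl9 window held 1 exact box 161 bases before the start and another with 1 C or G inside at 99 bases. Exact boxes were found in 3 of the 27 contractile genes with a window (Myl9, Myl6 and Vcl, 11.1%) and in 1.81% of the 27025 genes of the table. Boxes with exactly 1 C or G inside, a variant added after the Acta2 window had been read, were found in 14.8% and 9.69%. Neither Lmod1 nor Cnn1 had a match in these windows, and no window was available for Myh11 and Tagln.

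Beyond the markers, a set of genes separated smooth muscle from pericyte nuclei in every library. Apart from Myh11, Kcnma1 had the largest fold, and Kcnab1 and Kcnt1, other potassium channel genes, stood lower in the order. Kcnma1, the pore of the calcium-activated BK channel that relaxes vascular muscle, had 292, 339.9, 877 and 401 CPM in smooth muscle nuclei, while pericyte nuclei had no UMI of it in 3 libraries and 2.90 CPM in RVVO 2. With pericyte levels raised to at least 3 counts per library, this was at least 138-fold higher in each library. Kcnab1, a regulatory subunit of voltage-gated potassium channels, had 1654, 1546, 2207 and 1836 CPM against 28.7, 25.6, 23.4 and 19.6 in pericyte nuclei. Kcnt1, a sodium-activated potassium channel, had 115.6, 84.3, 123 and 113 CPM against 0.552, 1.92, 4.93 and 1.45. All 3 channels were thus far above the pericyte level in every library.

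Receptors and signalling enzymes formed another part of this set. Olfr78, an olfactory-type receptor found in arterial smooth muscle, had 725.6, 639.2, 726.4 and 595.2 CPM, against 6.62, 5.12, 1.23 and 2.17 in pericyte nuclei, and was found in 59.1% to 73.6% of the smooth muscle nuclei. Npy1r, a receptor of the vasoconstrictor neuropeptide Y, and Gpr20, an orphan receptor, were at lower levels of 52.0, 69.7, 54.8 and 62.7 CPM and of 43.4, 81.4, 68.5 and 75.2 CPM, and their means over all other nuclei were 0.833 and 0.425 CPM. The diacylglycerol kinases, which end the signal of receptors that raise calcium, were represented by a pair. Dgkb had 2692, 2830, 3276 and 2894 CPM against 86.7, 185, 186 and 59.4 in pericyte nuclei, and Dgkg had 399, 494, 411 and 714 CPM against 8.83, 7.67, 11.1 and 13.8. The other genes with the largest folds over pericyte nuclei were Cdh6, Map3k7cl, Slc6a17, Slc38a11, Nrip2, Ccdc3 and Adamts14, and Stac joined them in the comparison with all other nuclei. Against fibroblast nuclei the cation channel Trpc6, named after its values were seen, was added, with 225.5, 255.7, 356 and 219 CPM against a mean of 1.94. These genes were ranked by the lowest of the 4 library folds, and no test was made, because expression chose the nuclei.

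**Figure D1:**
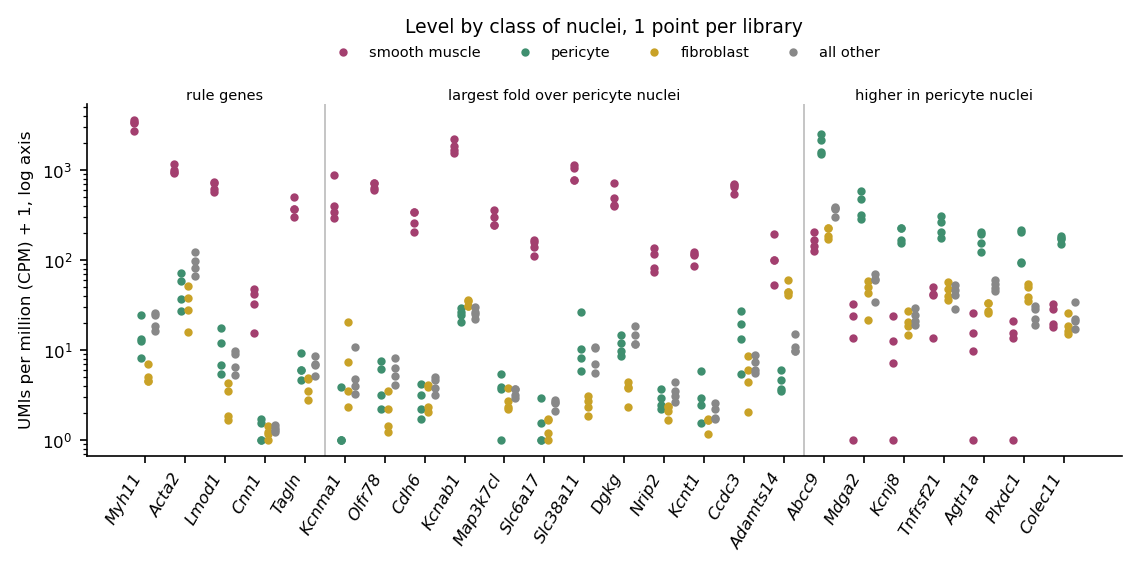
Level of genes in smooth muscle, pericyte, fibroblast and all other nuclei, as CPM + 1 of the summed UMIs on a log axis, 1 point per library. Smooth muscle points of the rule genes and of the genes with the largest fold over pericyte nuclei lie above those of pericyte nuclei in every library, and those of Abcc9, Kcnj8, Agtr1a and the others on the right lie below.

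The genes on the other side of this line were those of pericytes. Abcc9 and Kcnj8, the subunits of the ATP-sensitive potassium channel, helped to choose the pericyte nuclei. Abcc9 had 124, 203, 164.5 and 144 CPM in smooth muscle nuclei and 1517, 2507, 2168 and 1573 in pericyte nuclei. Genes that no rule used were Mdga2, a cell adhesion protein, with 31.8, 23.2, 0 and 12.5 CPM against 289, 582, 479 and 317.5, and Agtr1a, the type 1 angiotensin receptor, with 14.5, 8.72, 0 and 25.1 CPM against 122.5, 196, 207 and 155. Tnfrsf21, Plxdc1, Dennd2a, Colec11, Lin7a and Adgrl3 were also lower in smooth muscle nuclei in every library. Of the 4900 genes that passed the count filter in smooth muscle nuclei, 17.2% were above and 23.9% below their pericyte level in all 4 libraries.

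Gene lists of smooth muscle function were set beside the pericyte level in the same way, as a description. The list of the contractile apparatus holds none of the 5 rule genes. Of its 31 tested genes, 24 were above the pericyte level in every library and 1 below, and their median fold over pericyte nuclei was 2.52, while it was 0.962 over all 4900 genes. Of members named after their values were seen, Flna, which crosslinks actin filaments, had 737, 1055, 1001 and 1228 CPM against 106, 94.6, 69.0 and 98.6, and Mylk, the light chain kinase, had 792, 938, 1343 and 802 against 174, 241, 244 and 143. Genes of calcium handling and ion channels had 12 of 25 above and 6 below. Their most abundant members were Slc8a1, the sodium-calcium exchanger, with 3579, 3402, 3207 and 2913 CPM, and Cacna1c and Cacnb2, subunits of the L-type calcium channel. Both Slc8a1 and Cacna1c are also high in CMs, and the 12 CM markers summed to 29133, 17564, 25219 and 23049 CPM in smooth muscle nuclei and to 38280, 23644, 32473 and 34271 in pericyte nuclei, with Myh6 the most abundant and none at 0. The part of free CM RNA in these levels was not tested.

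Receptors and cyclic nucleotide enzymes had 9 of 20 tested genes above the pericyte level and 6 below, beside the 17.2% and 23.9% of all genes. Pde3a, which breaks down cyclic AMP, had 3672, 3812, 3947 and 3746 CPM, and Gucy1a2, a subunit of the nitric oxide receptor, had 752, 1107, 1042 and 940. Plcb4, a phospholipase C that acts under receptors that raise calcium, had 815, 773, 768 and 771. Among the 47 genes of this list, 6 had no UMI in any smooth muscle nucleus of any library, and they were Agtr1b, Adra1d, Adra2a, Adra2c, Avpr1a and Htr1b. At this depth 3 counts would be 8.67, 8.72, 41.1 and 18.8 CPM, and lower levels could not be told from 0.

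Regulators of transcription divided more evenly, with 10 of 29 above and 9 below (17.2% and 23.9% of all genes). Myocd, the myocardin gene, had 694, 692, 863 and 1046 CPM against 311, 246, 287 and 387 in pericyte nuclei, and was chosen for mention after its values were seen. Abundant members included Ebf1 and Sox6. Ebf1, a factor of mural cells, had 2587, 2394, 2577 and 2118 CPM against 2560, 3287, 2610 and 2305, so that smooth muscle and pericyte nuclei overlapped. Of 11 tested genes of Notch signalling, 5 were above and 2 below. Notch3, the receptor by which arterial muscle matures, had 1284, 1235, 1590 and 1121 CPM against 320, 639, 460 and 383, with Maml3 and Notch2 following in abundance. Hey2, a target of Notch named after its values were seen, had 121, 151, 109.6 and 144 CPM against 17.7, 25.6, 20.9 and 18.8.

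Growth factor signalling had 12 of 29 genes above and 8 below, where all genes had 17.2% and 23.9%, and Igfbp7, Igf1r and Ltbp1 were its most abundant members. Ltbp1, which binds latent TGF-beta to the matrix, had 373, 372, 672 and 520 CPM in smooth muscle nuclei against 87.2, 98.5, 109.7 and 154. The list of elastic fibres and interstitial matrix had 2 of 20 above and 7 below. Its leading member Eln, the elastin gene, had 283, 564, 356 and 589 CPM against 86.7, 112, 65.3 and 132 in pericyte nuclei, and Sparc and Dcn, which fibroblasts also make, were the next. Basement membrane and integrin genes had 14 of 30 above and 7 below, led by Dmd, Utrn and Itga1. Dmd, the dystrophin gene, had 5305, 6183, 7237 and 6848 CPM against 2019, 1950, 2579 and 3742. Genes of the synthetic state, the migratory form that smooth muscle takes when it leaves the contractile state, had 2 of 9 above and 2 below, near the shares of all genes, with Timp3, Vim and Fn1 as the most abundant and Spp1, Tnfrsf11b and Ccl2 at 0 in every library.

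Smooth muscle nuclei varied among themselves in their UMIs of pericyte genes. By the UMIs of Abcc9, Kcnj8, Rgs5 and Vtn, 236 of the 341 nuclei had 0 to 1, 50 had 2 to 3 and 55 had 4 or more. The last group made up 20.0%, 14.6%, 13.6% and 12.3% of the smooth muscle nuclei of the libraries. Pooled over libraries, Kcnma1 was at 532 CPM in nuclei with 0 to 1 of these UMIs and at 25.4 in those with 4 or more. Olfr78 was at 701 and 523 CPM and Kcnab1 at 1793 and 1320, so these stayed high in both. Agtr1a was at 3.45 and 40.6 CPM and Steap4, a metal reductase of pericytes, at 17.3 and 127. The nuclei with 4 or more pericyte UMIs had median totals of 3243, 3290.5, 3901 and 3451 UMIs against 2148.5, 2299, 3226.5 and 2495, and nuclei of both cell types that share a droplet cannot be told apart from nuclei of an intermediate kind.

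Clustering of the 341 nuclei without the rule genes and the sex-linked and mitochondrial genes gave 5 sub-groups, numbered 0 to 4 and left unnamed. Sub-group 3, with 114 nuclei, had the most transcripts of the 5 rule genes, 8340 CPM, and the fewest of the pericyte markers, 683 CPM. Its leading genes were Kcnma1 (1036 CPM against 77.1 in the other members), Slc22a3, Ptgis of prostacyclin synthesis (443 against 53.5), the receptor Ntrk3 (499 against 62.9), Col18a1 of the basement membrane (314 against 45.6), Lgr6, Nkd1, Col4a6, the integrin Itga8 (1165 against 250.1) and Wwp2. It held 23.2%, 35.8%, 40.9% and 47.4% of the smooth muscle nuclei of the 4 libraries. Sub-group 1, with 56 nuclei, lay at the pericyte end with 2528 CPM of pericyte markers and was led by Tmc5 (271 CPM against 9.03), Opcml, Lin7a, Ppfia2 and Adgrl3, of which Lin7a and Adgrl3 were also among the genes that were higher in pericyte nuclei.

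The other sub-groups carried transcripts of further cell types or few of their own. Sub-group 2, with 44 nuclei, was led by Fgd5 and Nos3, the endothelial nitric oxide synthase, and held 4217 CPM of endothelial markers, against 1174, 806, 729 and 1529 in sub-groups 0, 1, 3 and 4. The rule excluded endothelial nuclei by Ptprb alone. Sub-group 4, with 22 nuclei, was led by Aff2, Eya2 and Ust, and held 698 CPM of macrophage markers. Sub-group 0, with 105 nuclei, had no gene above 2.68 times the level of the other members, and its 10 leading genes included Cacna1d, Prdx5 and Rps23. CM markers came to 27142 and 27579 CPM in sub-groups 0 and 4, against 21468, 17968 and 23002 in sub-groups 1, 2 and 3. All of these are descriptions of clusters made from the same counts.

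**Figure D2:**
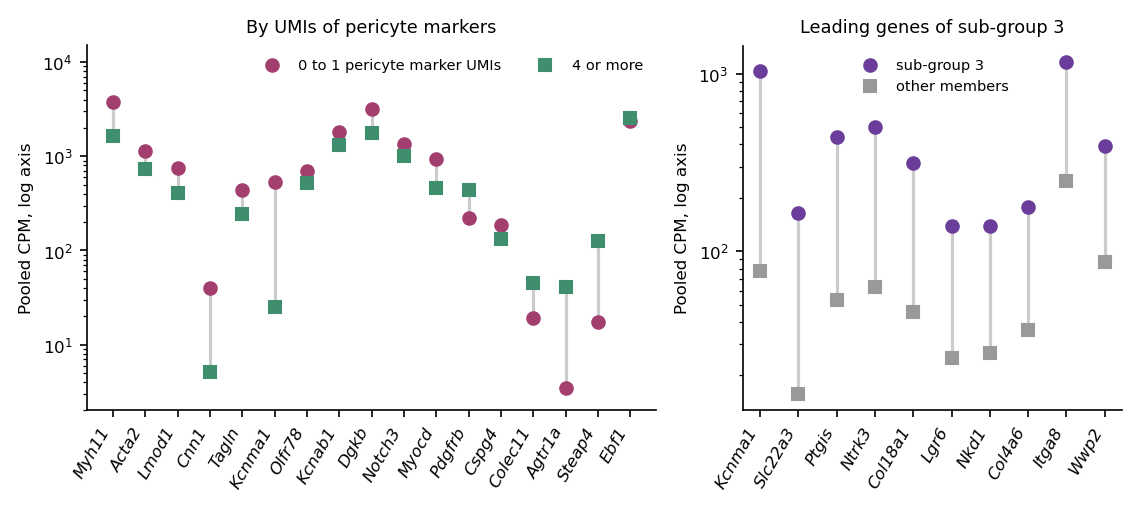
Pooled CPM on log axes for genes in smooth muscle nuclei with 0 to 1 or with 4 or more UMIs of pericyte markers (left) and for the 10 leading genes of sub-group 3 against the other members (right). Kcnma1 is at 532 and 25.4 CPM in the left panel and at 1036 and 77.1 in the right.

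Selected smooth muscle nuclei were fewer in RVVO than in sham libraries. They made up 0.963% (95% exact binomial interval 0.802 to 1.146), 0.941% (0.790 to 1.11), 0.267% (0.167 to 0.404) and 0.451% (0.342 to 0.584) of the nuclei kept. Means were 0.952% ± 0.0157 (SD, n = 2) in sham and 0.359% ± 0.130 (SD, n = 2) in RVVO, and the groups did not overlap. The exact two-sided permutation test gave p = 0.3333, the smallest that 2 libraries against 2 allow. The intervals cover counting error only. Both sham libraries carried transcripts of females and both RVVO libraries those of males, so surgery and sex cannot be told apart in this difference.

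The difference widened at the step that removes nuclei with transcripts of other cell types. By the UMIs of the 5 markers alone, 231, 214, 121 and 133 nuclei qualified, which were 1.78%, 1.47%, 1.47% and 1.05% of the nuclei kept, so that sham 2 and RVVO 1 nearly touched and the ratio of the sham to the RVVO mean was 1.29, against 2.65 by the whole rule. The exclusion genes then removed 99, 64, 78 and 68 nuclei and Ryr2 removed 7, 13, 21 and 8, leaving 54.1%, 64.0%, 18.2% and 42.9%. Nuclei removed by the exclusion genes were deep, with median totals of 7870, 6686, 15029.5 and 7909 UMIs, and RVVO 1 was the deepest library, with a median of 4823 UMIs over all nuclei kept against 2434, 2265 and 3442 in sham 1, sham 2 and RVVO 2. The exclusion genes were next limited to 1 UMI or 0.04% of UMIs, whichever was larger, a limit chosen after the data were seen. This looser limit gave 133, 142, 27 and 64 nuclei, and the shares were 1.02%, 0.975%, 0.327% and 0.507%. Nuclei were also thinned to 1000 UMIs, and those with fewer were left out. This kept 11510, 12256, 8186 and 12635 of 12982, 14564, 8247 and 12635 nuclei, so the loss was mostly in sham libraries. The rule then gave shares of 0.643%, 0.791%, 0.171% and 0.388%. Fibroblast nuclei made up 6.32%, 9.63%, 11.8% and 13.1% and pericyte nuclei 5.75%, 4.74%, 3.07% and 3.23%. Of smooth muscle and pericyte nuclei together, smooth muscle made up 14.3%, 16.6%, 8.0% and 12.3%.

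**Figure D3:**
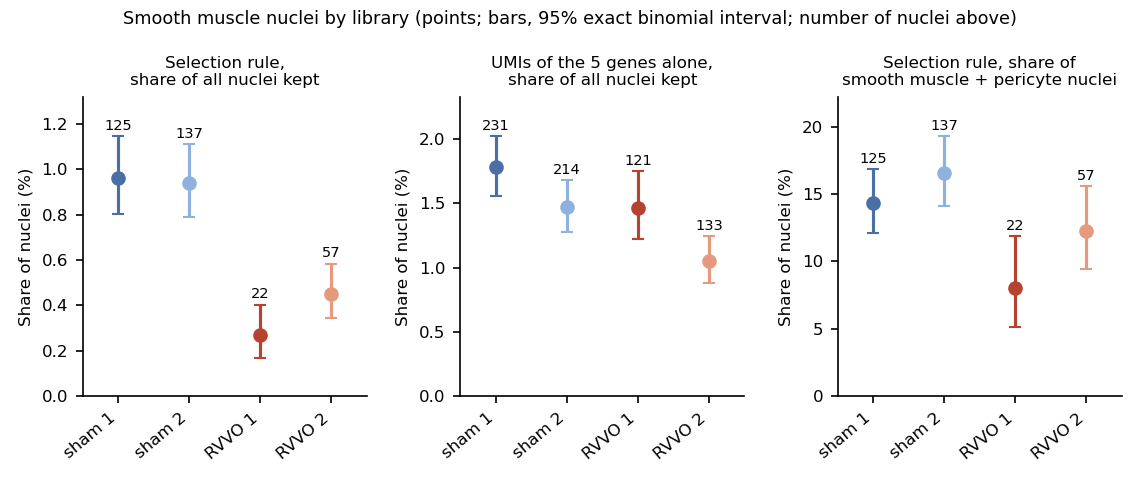
Share of smooth muscle nuclei in each library by the selection rule (left), by UMIs of the 5 genes alone (middle) and as a share of smooth muscle and pericyte nuclei (right), with 95% exact binomial intervals and the number of nuclei above each point. By the rule both RVVO libraries lie below both sham libraries, and by the 5 genes alone sham 2 and RVVO 1 both stand at 1.47%.

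Cell cycle transcripts were rare in smooth muscle nuclei, and the sign of the difference between the groups was not the same in every setting. After thinning to 1000 UMIs, which left out 1, 4, 0 and 0 nuclei, a UMI of any of 24 cell cycle genes was found in 7 of 124, 12 of 133, 1 of 22 and 3 of 57 nuclei, or 5.65%, 9.02%, 4.55% and 5.26%. No nucleus had 2 such UMIs. In pericyte nuclei the shares were 7.38%, 7.82%, 6.75% and 9.80%, and unthinned smooth muscle nuclei gave 15.2%, 16.1%, 13.6% and 15.8%. The difference between groups was -2.43 percentage points (exact permutation p = 0.3333), and unthinned it was -0.916. Thinned to 2000 UMIs, which left out 45, 48, 4 and 14 nuclei, it was 4.15, with 3 of 18 nuclei in RVVO 1. None of the 24 genes passed the count filter.

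The response of smooth muscle nuclei to RVVO was tested on UMIs summed per library with edgeR's quasi-likelihood test, adjusted over all genes. Of 4900 genes tested, 7 passed an adjusted p of 0.05, or 0.143%, with 4 higher and 3 lower in RVVO. Of these, 4 were sex-linked. Xist, which coats the inactive X chromosome in females, had 1246, 1354, 0 and 0 CPM, and Tsix, which overlaps it on the other strand, had 194, 224, 0 and 0. The Y-linked Uty had 0, 0, 205.6 and 182 CPM and Eif2s3y had 0, 0, 82.2 and 113. Sex therefore goes with surgery wherever sham and RVVO are compared, shares and cell cycle transcripts included, and the effects of each cannot be told apart.

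The other 3 genes lay on autosomes. Snx17, a sorting nexin of endosomes at chr5:31193227-31199143 of GRCm38, had 11.6, 8.72, 151 and 144 CPM. It rose by a log2 of 3.79 ± 0.521 (SE, edgeR adjusted p = 0.000415), on only 4, 3, 11 and 23 UMIs in smooth muscle nuclei. Snx17 was not particular to smooth muscle nuclei, since its levels were 20.4, 12.1, 82.6 and 119 CPM in pericyte, 17.4, 12.6, 126 and 144 in fibroblast and 15.1, 12.1, 104.5 and 129 in all other nuclei. F830016B08Rik, an interferon-inducible gene with no symbol of its own, had 610.0, 253, 41.1 and 75.2 CPM and fell by 2.75 on the log2 scale (SE 0.473, edgeR adjusted p = 0.00701). In all other nuclei it had 1581, 522, 188 and 364 CPM, so sham 1 was the highest library there too. Its log2 difference in smooth muscle nuclei was -1.98 without sham 1 and -3.35 without RVVO 2. Iigp1, an interferon-inducible GTPase, had 957, 404, 82.2 and 269 CPM in smooth muscle nuclei and did not pass (log2 difference -1.78, edgeR adjusted p = 0.158). It passed in 3 of 16 alternatives, with the replicate block (-1.66), without sham 2 (-2.28) and without RVVO 2 (-3.02), and was -1.03 without sham 1.

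Bicd1, an adaptor of the dynein motor at chr6:149408886-149563329, had 80.9, 119, 411 and 269 CPM in smooth muscle nuclei. It rose by a log2 of 1.71 ± 0.334 (SE, edgeR adjusted p = 0.0304), with both RVVO libraries above both sham libraries. In pericyte nuclei its levels were 46.9, 65.9, 35.7 and 71.0 CPM, and in fibroblast nuclei 90.3, 92.6, 118 and 174. These levels rest on 28, 41, 30 and 43 UMIs in smooth muscle nuclei. Bicd1 passed in 6 of 16 alternative analyses, Snx17 in 13 and F830016B08Rik in 9. No gene passed edgeR's test without RVVO 1, where 271 had an unadjusted p under 0.05, while 20 passed without RVVO 2 and 14 without sham 2, of which 6 each were among the 7.

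The autosomal genes with the next lowest p did not pass in the main analysis. Ankrd1, a stretch-responsive ankyrin repeat protein of muscle, had 23.1, 40.7, 109.6 and 144 CPM (log2 difference 2.04 ± 0.452 SE, edgeR adjusted p = 0.117). Its levels in pericyte nuclei were 60.7, 60.7, 40.7 and 98.6. Lama5, a laminin chain of the vascular basement membrane, had 95.4, 84.3, 260.4 and 213 CPM (1.37 ± 0.334, edgeR adjusted p = 0.211) against 27.6, 21.1, 18.5 and 34.8 in pericyte nuclei. Sulf1, which trims heparan sulphate, had 63.6, 87.2, 233 and 207 CPM. Itpkb, a kinase of inositol phosphates, had 295, 308, 109.6 and 125 CPM, and Hspa4l, a chaperone, had 40.5, 72.6, 0 and 0, where 3 counts would be 41.1 and 18.8 in the RVVO libraries. Airn, a non-coding RNA at chr17:12741311-12860136, had 1709, 2060.0, 795 and 1065 CPM, and the Igf2r gene that it overlaps, at chr17:12682406-12769664, had 257, 261.5, 82.2 and 113. Ncald and Kcnd2 were lower in both RVVO libraries, and Sorbs2os, a transcript named for the neighbouring Sorbs2, was higher with 376, 433, 658 and 984 CPM. In all other nuclei Sorbs2os had 121, 123, 137 and 232 CPM and Itpkb had 417, 367, 249 and 234, so both differed in the same direction there. Sulf1 and Hspa4l did so too, while the groups of Ankrd1, Lama5, Airn, Ncald and Kcnd2 overlapped in all other nuclei. In smooth muscle nuclei the log2 difference of Kcnd2 was -0.83 without sham 1 and -1.71 without sham 2. Hspa4l passed with the replicate block (log2 difference -6.86, edgeR adjusted p = 0.0407). The exclusion genes were also limited to 1 UMI or 0.04% of UMIs, whichever was larger, which added nuclei to those of the main rule. The log2 difference of Kcnd2 then went from -1.33 to 0.01, that of Airn from -0.99 to -0.32 and that of Lama5 from 1.37 to 0.57. That of Itpkb went from -1.32 to -0.56 and that of Sorbs2os from 1.06 to 0.68. Hspa4l, with no UMI in RVVO by the main rule, then had a fitted log2 difference of -1.34 (unadjusted p = 0.0795 by edgeR). In smooth muscle nuclei by the main rule, the groups of all of these genes did not overlap, as for 16.0% (higher) and 19.2% (lower) of all genes tested.

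None of the gene lists of smooth muscle function had a member that passed, as 0.143% of all genes tested did, a share too small to read anything from their absence. The median log2 difference of the 31 contractile genes was 0.14, against -0.0056 over all genes tested, with 9 higher and 1 lower in both RVVO libraries than in both sham libraries (16.0% and 19.2% of all genes tested). Prkg1, the kinase through which nitric oxide relaxes muscle, had 7858, 8592, 9882 and 8483 CPM, and its groups overlapped. Sorbs2, an adaptor of actin at adhesion sites, had 2611, 2839, 4153 and 3903 CPM (log2 difference 0.57 ± 0.223 SE, unadjusted p = 0.0178 by edgeR), and Tpm1, a tropomyosin, had 3151, 2202, 3495 and 3734. Unadjusted p was under 0.05 for 2.53% (higher) and 3.31% (lower) of all genes tested, and for 1 and 0 of the contractile genes. Medians were -0.04 for the 25 genes of calcium and channels, 0.02 for the 20 of receptors and cyclic nucleotides, 0.09 for the 29 transcription regulators and -0.14 for the 11 Notch genes. The pairs of counts higher and lower without overlap were 3 and 2, 2 and 2, 5 and 4, and 1 and 3, beside the same 16.0% and 19.2% of all genes tested. Members of these and the following lists named for an unadjusted p under 0.05 were chosen after their values were seen. Kcnma1, which leads sub-group 3, had the levels given above, where RVVO 1 alone stood apart with 877 CPM against 401 in RVVO 2, and Rgs5, a brake on G protein signals that is high in pericytes, had 937, 567, 480 and 495 CPM. Sub-group 3, with Kcnma1 and Col18a1 among its leading genes, held the larger shares of both RVVO libraries given above, and its part in their values was not tested.

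Of the lists of smooth muscle function, the matrix lists had the highest medians. The 20 genes of elastic fibres and interstitial matrix had a median of 0.30, with 7 higher and 2 lower in both RVVO libraries, and the 30 genes of basement membrane and integrins a median of 0.22, with 12 and 7, where 16.0% and 19.2% of all genes tested were higher and lower in that way. Dcn, a small proteoglycan, had 159, 186, 233 and 470 CPM, and Col3a1, a fibrillar collagen, had 124, 139, 178 and 363, each highest in RVVO 2. Emilin1 and Mfap5 of elastic fibres had 14.5, 20.3, 54.8 and 50.1 CPM and 8.67, 14.5, 41.1 and 43.9, on few UMIs. Col14a1, by contrast, had 57.8, 58.1, 13.7 and 18.8. The 10 fibroblast markers summed to 853, 933, 1124 and 1422 CPM in these nuclei, with Gsn the most abundant and none at 0, and their part in the matrix values was not tested.

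Growth factor genes had a median of 0.04, with 8 higher and 5 lower without overlap (16.0% and 19.2% of all genes tested), and 4 of the 29 had a positive difference with an unadjusted p under 0.05 (2.53% of all genes tested). These were Pdgfc, a ligand of the PDGF family, with 5.78, 8.72, 82.2 and 50.1 CPM, Tgfb2 with 116, 163, 205.6 and 244, Ltbp1, given above, and Angpt2, with 40.5, 55.2, 205.6 and 56.4, where RVVO 1 alone stood apart. Pdgfc had the lowest p of these (3.01 ± 0.791 SE, unadjusted p = 0.00103 by edgeR) and rests on few UMIs. The 9 genes of the synthetic state had a median of 0.14 and none with an unadjusted p under 0.05, and the 4 immediate early genes tested had a median of 0.04.

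**Figure D4:**
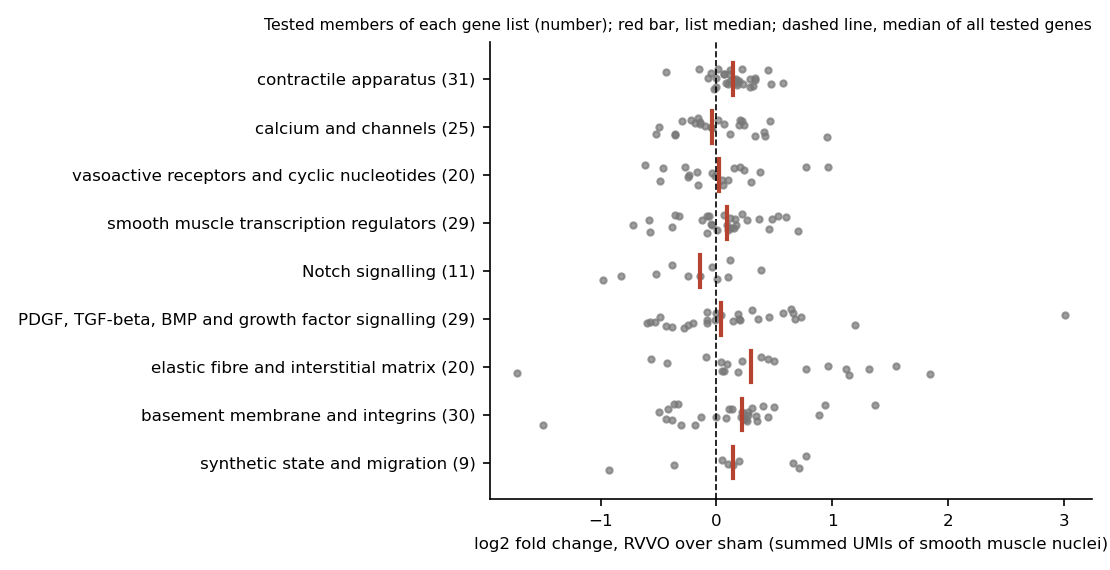
log2 fold change of RVVO over sham for every tested member of 9 gene lists in smooth muscle nuclei (points, with the number tested beside each name), with red bars at the list medians. The medians lie between -0.14 for Notch signalling and 0.30 for elastic fibres and interstitial matrix, near the dashed line at -0.0056 for all genes tested.

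Transcripts of other cell types were compared between the libraries as well. Endothelial markers summed to 1818, 1290.1, 795 and 1704 CPM in smooth muscle nuclei, with Fabp4 the most abundant, macrophage markers to 231, 72.6, 54.8 and 182, led by F13a1, and pericyte markers to 1631, 1366, 1302 and 1203. Haemoglobin and other erythroid transcripts came to 731, 991, 2700.1 and 789, so RVVO 1 stood apart. Mitochondrially encoded transcripts summed to 17554, 11852, 7401 and 12806 CPM, and the median log2 difference of the 12 tested was -0.49. Lymphocyte, epicardial, glial and adipocyte markers reached at most 25.1, 144, 55.2 and 98.3 CPM in any library. The part of these transcripts in the differences between sham and RVVO was not tested.

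Whether the effect of RVVO differed between smooth muscle and pericyte nuclei was tested by an interaction of class and group, with the library as a block, so that what acts alike on both classes of a library cancels. Of 8821 genes, 10 passed an adjusted p of 0.05, or 0.113%, with 7 lower and 3 higher in smooth muscle relative to pericyte nuclei. Bicd1 was the gene that passed in both analyses, with a difference of 1.68 ± 0.384 (log2, SE, edgeR adjusted p = 0.0210), and it passed the interaction test in 2 of 13 alternatives. Its difference was 1.07 without RVVO 1 and 2.60 without RVVO 2. Col18a1, the collagen of which endostatin is a fragment, had 98.3, 116, 233 and 175 CPM in smooth muscle nuclei and 28.1, 14.7, 7.39 and 7.97 in pericyte nuclei, a difference of 2.30 ± 0.546 (edgeR adjusted p = 0.0318), which was 1.60 without sham 1. Phldb2, which anchors microtubules at the cell cortex, had 477, 453, 822 and 752 CPM against 139, 101.0, 94.9 and 82.6, a difference of 1.17 ± 0.287 (edgeR adjusted p = 0.0431). In these 3 genes the RVVO libraries were above the sham libraries in smooth muscle nuclei, and in pericyte nuclei they were mixed for Bicd1 and below for the other 2.

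The 7 genes on the lower side included several that CMs express at high levels. Kcnd2, a potassium channel of the heart, had 674, 366, 233 and 188 CPM in smooth muscle nuclei, 1182, 1000.04, 1110.2 and 1667 in pericyte nuclei and a mean of 2873 in all other nuclei. Its difference was -1.71 ± 0.329 (edgeR adjusted p = 0.00100). Rbm20, a splicing factor of titin, had 344, 267, 95.9 and 169 CPM against 697, 685, 647 and 1462, and a mean of 2328 in all other nuclei. Esrrg, a nuclear receptor of oxidative metabolism, had 145, 116, 13.7 and 50.1 CPM against 270, 288, 323 and 518, and Tacc2, a centrosomal protein, had 387, 195, 137 and 150.4 against 506, 435, 549.6 and 766. In these 4 genes the RVVO libraries lay below the sham libraries in smooth muscle nuclei. Pde4d, which breaks down cyclic AMP, had 506, 305, 370.1 and 232 CPM, so that its groups overlapped, against 1120.4, 618, 1162 and 2210 in pericyte nuclei. Its difference was -0.65 without RVVO 2 and -2.19 without RVVO 1, and that of Esrrg was -3.53 without RVVO 2. Means of Esrrg, Tacc2 and Pde4d in all other nuclei were 898, 1399 and 3178 CPM. The exclusion genes were also limited to 1 UMI or 0.04% of UMIs, whichever was larger, which added smooth muscle nuclei to those of the main rule. The differences of Rbm20, Esrrg and Pde4d then came to 0.0095, 0.05 and 0.22 and those of Kcnd2, Tacc2 and Igf2r to -0.23, -0.21 and -0.47. Of the 10 genes F13a1 alone still passed. The summed CM markers given above were higher in pericyte than in smooth muscle nuclei in every library, and their part in these genes was not tested.

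Igf2r, the receptor that carries IGF2 to lysosomes, had pericyte levels of 282, 338, 317 and 357 CPM and a mean of 314 CPM in all other nuclei. In smooth muscle nuclei it had 257, 261.5, 82.2 and 113 CPM, a difference of -1.51 ± 0.374 (edgeR adjusted p = 0.0473), and it passed in none of 13 alternatives. F13a1, a clotting factor subunit of macrophages, had 168, 8.72, 13.7 and 31.3 CPM, where sham 1 alone stood apart with 58 UMIs in 5.60% of its smooth muscle nuclei. Its difference was -2.61 ± 0.625 (edgeR adjusted p = 0.0318) and turned to 0.39 without sham 1. No gene passed edgeR's interaction test without the nuclei of high doublet score or without those with endothelial markers, where 485 and 469 had an unadjusted p under 0.05. The number that passed was 0 without sham 1 (329 with an unadjusted p under 0.05), 4 without sham 2, 16 without RVVO 1 and 0 without RVVO 2 (600).

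**Figure D5:**
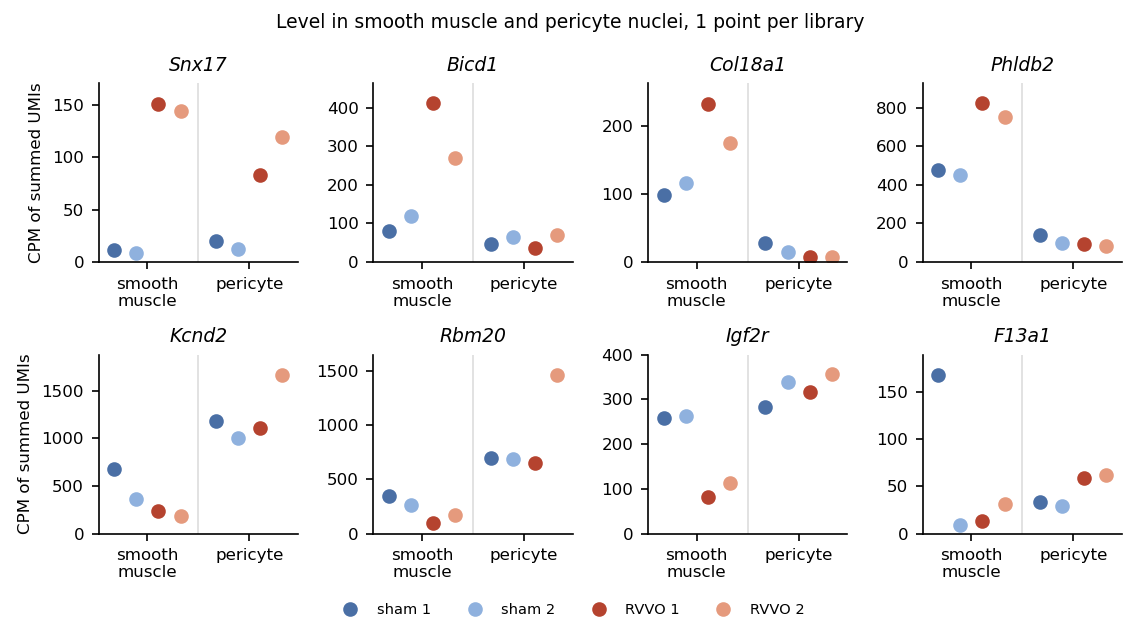
CPM of the summed UMIs in smooth muscle nuclei (left of each panel) and pericyte nuclei (right), 1 point per library, for genes called between sham and RVVO or between the effects in both classes. Bicd1, Col18a1 and Phldb2 have RVVO points above the sham points in smooth muscle nuclei alone, Snx17 in both classes, and F13a1 rests on sham 1.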

How the data were processed

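The files deposited by the authors hold UMI counts per gene and barcode of 2 sham and 2 RVVO libraries (10x 3′ v3, NovaSeq), with no normalization. Their headers name Cell Ranger 5.0.0, while the submitters' processing notes name Cell Ranger 3.0.1, STAR and Seurat 3.0.2, with GRCm38 and mm10. The sources do not state whether introns and strand were used in counting, so overlapping genes on opposite strands may share reads. Of 27998 gene identifiers, 27645 were in GENCODE M21, from which positions were taken.

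Members and lists were chosen with earlier results of these data known, and UMIs of the rule genes chose the nuclei, so smooth muscle was compared with other classes without a test. Pericyte nuclei (2098) had at least 4 UMIs over Abcc9, Kcnj8, Rgs5, Vtn and Pdgfrb and at most 1 over the smooth muscle genes. Fibroblast nuclei (4853) had at least 1 UMI of Pdgfra and 4 over Pdgfra, Abca8a, Dcn, Col1a1 and Gsn. CPM were taken from the summed UMIs of a class in a library. A fold against a level below 3 counts used that floor.

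Sums were tested with edgeR 4.0.16 in R 4.3.3 (TMM, filterByExpr, quasi-likelihood, Benjamini-Hochberg), and the interaction with library as a block. A standard error is the fold change divided by the root of F. Library values were compared by exact permutation in SciPy 1.17.1. Members were clustered in Scanpy 1.11.5 (2000 variable genes, Leiden). Doublet scores came from Scrublet's method, marking the highest 0.8% per 1000 barcodes, and removed no nucleus from the main analysis. The edgeR test between sham and RVVO was also run on simulated counts with known changes, drawn from the levels and dispersions of these data. Replicate numbers 1 and 2 pair no libraries by the labels.

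Named were the rule genes, the 3 members of each list with the highest mean CPM and any called, all genes called, the 10 autosomal genes of own symbol with the lowest p, and the genes with the largest lowest-library fold (15 over pericyte and all other nuclei, 10 under pericyte nuclei). One gene that this rule names is not reported here. Alternatives were another barcode filter, a stricter rule, removal of nuclei with pericyte markers or high doublet scores, thinning, DESeq2 1.42.0, other normalizations, no filter on counts, a replicate block and each library left out. After the data were seen, a limit on the exclusion genes as a share of UMIs, removal of nuclei with endothelial markers, the 5 genes alone and the smooth muscle and pericyte nuclei as denominator were added.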

Additional observations from a re-analysis of the deposited data

Results flagged for a closer look

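The effect of RVVO differed between smooth muscle and pericyte nuclei by the interaction test for 10 genes, each given here as the log2 effect in smooth muscle minus that in pericyte nuclei. It was higher in smooth muscle nuclei for Col18a1 (2.30), Bicd1 (1.68) and Phldb2 (1.17). It was lower for F13a1 (-2.61), Esrrg (-2.49), Rbm20 (-1.85), Kcnd2 (-1.71), Pde4d (-1.52), Tacc2 (-1.51) and Igf2r (-1.51). With the exclusion genes as a share of UMIs, the difference was 0.05 for Esrrg, 0.0095 for Rbm20, -0.23 for Kcnd2, 0.22 for Pde4d, -0.21 for Tacc2 and -0.47 for Igf2r, and F13a1 alone passed. Igf2r passed in 0 of 13 alternatives, at unadjusted p from 3.466e-05 to 0.138 by edgeR. Without single libraries the difference ran from 1.07 to 2.60 for Bicd1, from 1.60 to 2.81 for Col18a1, from -2.19 to -0.65 for Pde4d, from -3.53 to -2.29 for Esrrg and from -3.61 to 0.39 for F13a1. Groups of 2 libraries are too small for a test of single libraries that stand apart.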

How the results depend on the processing

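Of the 7 genes called between sham and RVVO, 7 or 6 were called with RLE or no normalization, another barcode filter, DESeq2 or without high doublet scores, and 5 with the stricter rule, without pericyte-marked nuclei or, among 8 called, with exclusion genes as a share of UMIs. The count was 0 without the filter on counts (468 genes with an unadjusted p under 0.05, and 6 called by DESeq2), 1 after thinning to 1000 UMIs, 4 without endothelial-marked nuclei, and 0 to 20 without single libraries. With the replicate block it was 9, including the 7, while the numbers share only a number (correlation of deviations -0.0525). The interaction count of 10 was 9 with RLE and 8 with another barcode filter. It was 5 without the count filter, 1 with the stricter rule, without pericyte-marked nuclei or with exclusion genes as a share of UMIs, 0 without high doublet scores (485 genes with an unadjusted p under 0.05), without endothelial-marked nuclei (469) or without the library block (392), and 0 to 16 without single libraries. The causes were not tested. Differences turned in sign for Kcnd2 between sham and RVVO (0.0104), and for the interaction of Rbm20 (0.0095), Esrrg (0.0493) and Pde4d (0.221), all with exclusion genes as a share of UMIs, and for F13a1 without pericyte-marked nuclei (0.743) or sham 1 (0.389, with -3.61 to 0.389 without single libraries). The share of smooth muscle nuclei differed by -0.593 percentage points, by -0.400 to -0.795 under the other settings for members, depth or low Ryr2, by -0.364 for the 5 genes alone, by -5.32 of smooth muscle and pericyte nuclei, and by -0.501 to -0.685 without single libraries. The cell cycle difference of -2.43 was -0.916 unthinned, 4.154 at 2000 UMIs, and -4.12 to -0.741 without single libraries. Sums of 22 nuclei in RVVO 1 limit every comparison, and a lone library left in a group is assumed to vary like the other group.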
